A study of Rattus with 9 samples.

Results

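Patrolling monocytes of the rat bile duct were chosen by their transcripts, and 2510 of 150379 kept cells (1.67%) were taken as such. A cell counted as 1 of them when it held at least 1 unique molecular identifier (UMI) of Csf1r, at least 1 of Tyrobp and at least 1 of Spn and Mal together. It held no UMI of Fcnb, at most 2 of C1qa, C1qb and C1qc together, and none of Cd3e, Cd79b, Epcam or Lum. These genes chose the cells, so their levels are no result. Csf1r encodes the receptor of colony-stimulating factor 1, Tyrobp a signalling adaptor of myeloid cells, Spn the sialomucin CD43, and Mal a membrane raft protein.

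Patrolling, or non-classical, monocytes crawl along the inner wall of blood vessels and clear damaged endothelium and debris. They arise from classical inflammatory monocytes under the transcription factor Nr4a1, and in the rat they are marked by high CD43. Classical monocytes enter injured tissue early and carry S100 proteins and chemokines. Tissue macrophages make complement C1q and handle iron, lipid and dead cells.

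Bile ducts came from 3 sham samples, from 3 samples after liver transplantation (LT) with ischemic injury of the graft, and from 3 samples after LT in which the splenic and gastroduodenal arteries were also tied to raise arterial flow (raised flow). The transplanted samples were taken on days 1, 3 and 7 post-LT, with 1 sample per day in each arm, so that day 1 is the first, day 3 the second and day 7 the third value given for an arm below. The study's methods name Sprague-Dawley rats. Sham samples held 1 library each and the others 2 or 3, and the labels do not say whether libraries came from separate rats. P-values therefore measure only the spread between these samples, which may be technical. Where arms are compared, days 1, 3 and 7 stand as the 3 samples of a transplanted arm. Without the day as a block, that spread also holds any change between days.

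Some samples stood apart. The 96 patrolling monocytes of the sham arm were 25, 40 and 31 cells, against 1192 in the transplant arm and 1222 in the raised flow arm. On day 3 of the transplant arm, 2 of the 3 libraries lost 2479 and 3966 barcodes to the hemoglobin limit and gave 4 and 10 patrolling monocytes. On day 3 of the raised flow arm the cells were shallow, with a median of 1638 UMIs against 2126 to 3892 in the other samples. Marker genes of other cells put the free RNA in them at 16.9% of UMIs, against 1.12% to 6.45% elsewhere. In Fcnb-positive monocytes of the same sample the estimate was 3.00%, and whether other cells in the gate raised the value was not tested. No 2 libraries of 1 sample shared a patrolling monocyte barcode, and 2 such barcodes were shared between libraries of different samples.

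The label was looked at on 16 known markers of patrolling monocytes that the gate did not use and that were detected in these cells. Gngt2 was among the markers given with the label, and the list was chosen with earlier results of these data known, so this is no independent check. With each cell thinned to 1000 UMIs, 2 of the 16 markers, Gngt2 and Cebpb, were found in most of the cells. The other 14 were found in shares from 0.423% for Stap1 to 45.3% for Fcgr3a. Gngt2, a G protein subunit of non-classical monocytes, was present before thinning in 86.8% of the patrolling monocytes, 68.5% of Fcnb-positive monocytes and 70.8% of C1q-high macrophages. After thinning it was found in 70.5% of them, 33.1% of Fcnb-positive monocytes, 31.8% of C1q-high macrophages, 36.7% of otherwise like cells without Spn or Mal, and 1.37% of Epcam-positive epithelial cells, which should lack it. The median depths before thinning were 2881.5 UMIs in patrolling monocytes and 6460.5 in epithelial cells. Of the 2510 patrolling monocytes, 1710 (68.1%) held no UMI of a wider panel of 19 lymphoid, mast cell, epithelial, stromal and endothelial genes. In sham these were 11 of 25, 16 of 40 and 16 of 31 cells. They were 46 of 82, 92 of 152 and 692 of 958 in the transplant arm. In the raised flow arm they were 131 of 257, 172 of 228 and 534 of 737. Whether free RNA or other cells gave the panel's UMIs was not tested.

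The muscle enolase gene Eno3, the adhesion receptor gene Adgre4 and the sphingosine-1-phosphate receptor gene S1pr5 were rare outside the gate. Thinned shares in patrolling monocytes, Fcnb-positive monocytes and C1q-high macrophages were 9.81%, 0.728% and 0.328% for Eno3. They were 7.10%, 1.15% and 0.189% for Adgre4, and 5.54%, 0.854% and 0.139% for S1pr5. Fcgr3a, an Fc receptor gene, was shared with macrophages, with 45.3% in patrolling monocytes, 11% in Fcnb-positive monocytes and 46.8% in C1q-high macrophages. Cx3cr1, the fractalkine receptor that marks these cells in the mouse, was found in 1.06% of patrolling monocytes and 1.96% of macrophages, and Ace had no UMI in the patrolling monocytes of any sample.

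**Figure D1:**
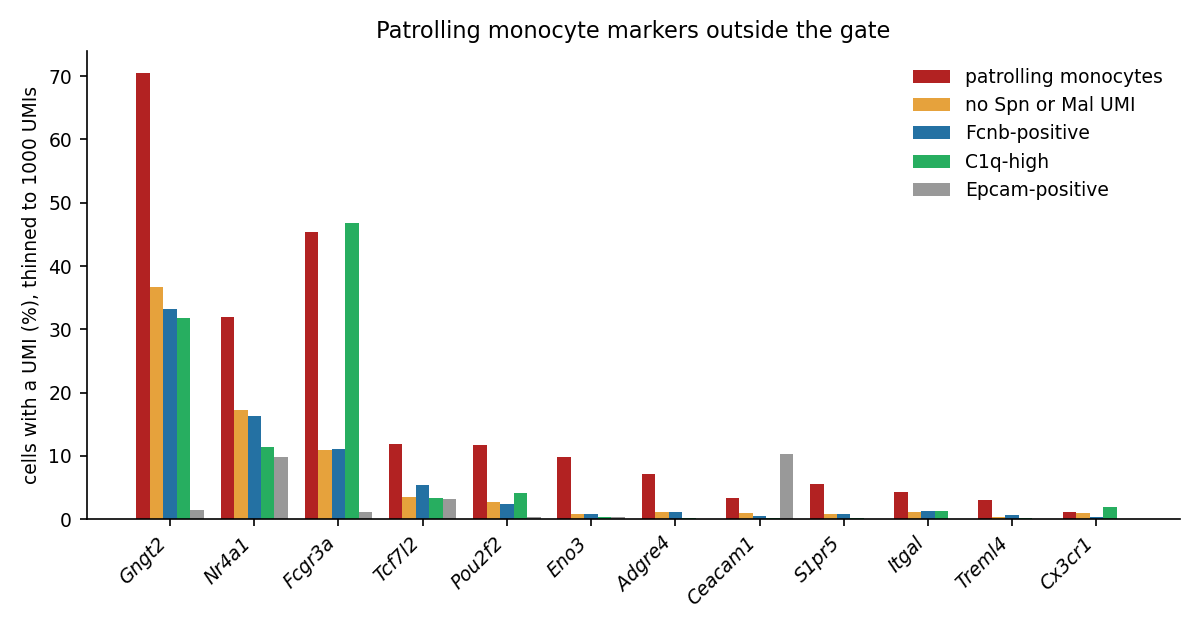
Share of cells with at least 1 UMI of each marker after thinning to 1000 UMIs, in the patrolling monocyte gate, in like cells without a Spn or Mal UMI, and in Fcnb-positive, C1q-high and Epcam-positive cells, pooled over all samples. Gngt2 stood at 70.5% in patrolling monocytes, and Eno3, Adgre4 and S1pr5 were under 2% in the other 3 myeloid gates.

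The markers did not run alike over the samples. Thinned Gngt2 shares of patrolling monocytes were 63.6%, 23.1% and 44.8% in the sham samples, 58.8%, 62.0% and 76.6% in the transplant arm, and 65.7%, 54.2% and 76.2% in the raised flow arm. In sham 2 the Gngt2 share of like cells without Spn or Mal was 20.6% and that of Fcnb-positive monocytes 34.0%, so the gate did not stand out there by Gngt2. Thinned Eno3 shares were 18.2%, 7.69% and 17.2% in sham, 11.2%, 9.33% and 8.37% in the transplant arm and 5.18%, 5.42% and 14.3% in the raised flow arm. Those of Adgre4 ran from 7.69% to 17.2% in sham and from 6.20% to 8% in the transplanted samples. In sham 2 the Eno3 share of like cells was 0.763%. With 25 to 40 cells a sample the sham shares are imprecise. Summed tissue macrophage markers outside the gate, 5 of 9 with a median level over 10 CPM (a gene's UMIs scaled to a common total per sample), ran from 209 to 1049.7 CPM in sham, with sham 2 highest, 237 to 371 CPM in the transplant arm and 159.6 to 545 CPM in the raised flow arm. The 12 dendritic cell markers, 2 of them over that level, summed to 112 to 765 CPM in sham, again highest in sham 2, and to 145 to 178 and 126 to 225 CPM in the transplanted arms. Smooth muscle markers summed to 577 CPM on day 3 of the raised flow arm and to between 0 and 158 CPM in the other samples.

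The cells entered the gate by different routes. Spn without Mal was found in 420 cells (16.7%), Mal without Spn in 1108 (44.1%) and both in 982 (39.1%). The mix differed between samples. Spn-only cells were 4.0, 55.0 and 29.0% in sham, 25.6, 13.2 and 14.0% in the transplant arm and 22.6, 17.1 and 15.7% in the raised flow arm. Cells with both were 72.0, 10.0 and 38.7% in sham and 15.8% to 45.6% in the transplanted samples. A single UMI of Spn and Mal together placed 753 of the cells (30.0%) just inside the gate, and 3225 like cells with none lay just outside it. Cells with C1q counts of 1 and of 2, the upper limit, numbered 392 and 73.

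Cells with only Spn and cells with only Mal differed, within the 6 transplanted samples that held at least 20 of each. Of 3369 genes tested by edgeR's quasi-likelihood test with the sample as a block, 641 (19.0%) passed an adjusted p of 0.05, 294 higher (8.73%) and 347 lower (10.3%) in Spn-only cells. The free RNA estimate, which rests on UMIs of epithelial, fibroblast and smooth muscle markers, stood apart in 2 samples on 1 side of the comparison. On transplant day 7 it was 21.7% of UMIs in Spn-only and 3.30% in Mal-only cells. On raised flow day 3 it was 2.15% in Spn-only and 25.6% in Mal-only cells. The other transplanted samples ran from 1.72% to 2.50% in Spn-only and 1.96% to 5.42% in Mal-only cells. Whether other cells in the gate raised these values was not tested. Without transplant day 7 or raised flow day 3, 385 and 548 genes passed. Without day 1 or day 7 of the raised flow arm there were 406 and 286, and with the empty barcode profile subtracted 579 passed. The patrolling monocyte markers leaned to the Mal-only cells: of 10 tested, 6 were lower in Spn-only cells and 1, Itgax, was higher, with a median log2 fold change of -0.84 against -0.002 over all genes. Gngt2 had a log2 fold change of -1.24 ± 0.11 (SE, adjusted p = 3.85e-05) and was lower in Spn-only cells in 6 of 6 samples. Adgre4 ranged over 4.34 to 41.3 CPM with a median of 24.2 in Spn-only cells. In Mal-only cells it ranged over 45.3 to 92.3 CPM with a median of 74.8, without overlap. It kept 1 direction in every sample, as 18.8% of all genes tested did.

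Single genes of lymphoid and dendritic cells were higher in Spn-only cells. Ccl5, a chemokine of cytotoxic lymphocytes, ranged over 10.3 to 2769.6 CPM with a median of 1339.9 in Spn-only and 2.29 to 135 CPM with a median of 9.01 in Mal-only cells, with a log2 fold change of 5.07 ± 0.33 (adjusted p = 2.46e-06). Nkg7, a granule protein gene of natural killer (NK) cells, had a log2 fold change of 4.95 ± 0.36 (adjusted p = 5.29e-06). Clec10a, a lectin of dendritic cells and macrophages, had 3.201 ± 0.35 (adjusted p = 9.85e-05), and the class II genes RT1-Db1, RT1-Bb and RT1-Da had 1.56, 1.49 and 1.11, although reads of these like genes may be split uncertainly. All 3 of Ccl5, Nkg7 and Clec10a were higher in Spn-only cells in 6 of 6 samples, which the rule for genes named by size required. Of 2 NK cell markers tested 1 was higher, while Klrk1 had -0.16, and of 2 dendritic cell markers 1 was higher, while Cd1d1 had -0.43. Of 4 tissue macrophage markers 2, Mrc1 and Pltp, were higher and none lower, and of 5 neutrophil markers 3, G0s2, Slpi and Csf3r, were lower and none higher. The part of other cells in these differences was not tested.

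Some interferon-stimulated genes were higher in Mal-only cells. Of 22 such genes tested, 10 were lower in Spn-only cells and none higher, with a median log2 fold change of -0.71. The guanylate-binding protein gene Gbp2 ranged over 28.2 to 661 CPM with a median of 258 in Spn-only and 227 to 1027 CPM with a median of 676 in Mal-only cells. G0s2, a lipolysis inhibitor, was lower in Spn-only cells by 1.38 ± 0.18 on the log2 scale. With cells thinned to 1000 UMIs, 104 genes passed in place of 641, and without the block 112.

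**Figure D2:**
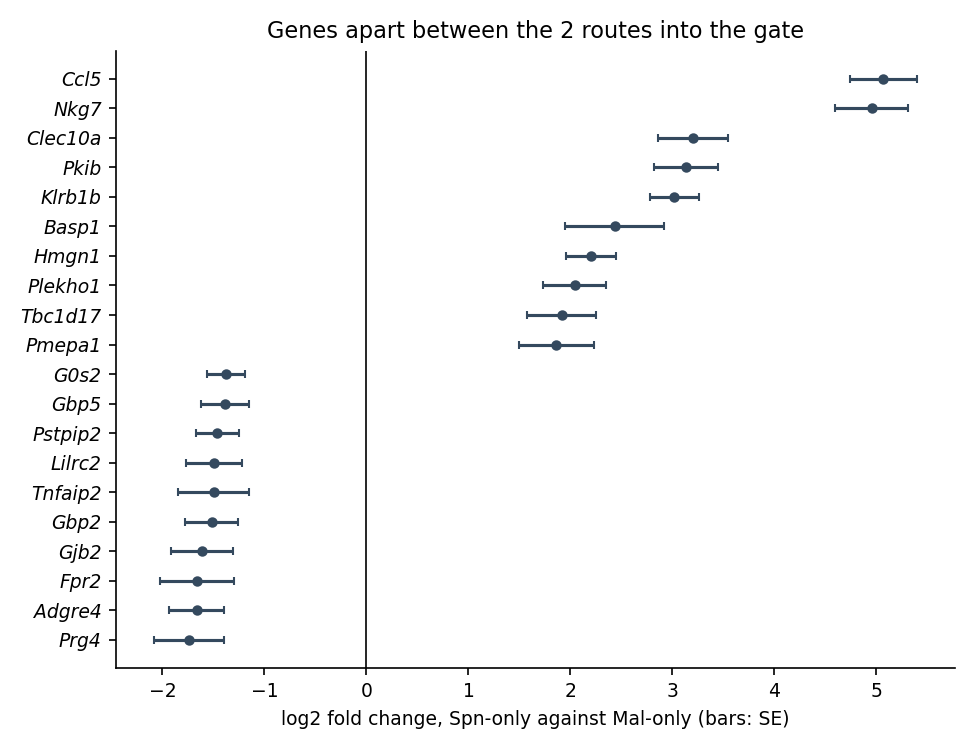
Log2 fold change between Spn-only and Mal-only patrolling monocytes for the 20 named genes, over 6 transplanted samples with the sample as a block; points are estimates and bars are standard errors. Ccl5 and Nkg7 lie near 5 to the right, and Prg4, Adgre4 and Fpr2 lie farthest to the left.

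In sample totals, patrolling monocytes made up a larger share of cells on day 7 post-LT than earlier, and in the transplant arm this rested on 1 library. Their shares of all kept cells were 1.02, 0.401 and 0.259% in sham, 0.595, 1.87 and 2.80% in the transplant arm and 1.06, 1.29 and 2.65% in the raised flow arm. Day 7 was highest in both transplanted arms, at 2.80% (95% Wilson interval 2.63% to 2.98%) and 2.65% (95% Wilson interval 2.46% to 2.84%), where intervals cover counting error only. With 1 sample per day in each arm the day was not tested for shares. Within a sample the libraries varied, from 0.188% to 0.944% over the 3 libraries of transplant day 1, 0.915% to 2.97% on day 3 and 1.59% to 4.45% on day 7, and from 0.575% to 1.46%, 1.11% to 1.502% and 2.37% to 3.07% in the raised flow arm. Libraries of days 3 and 7 overlapped in the transplant arm, where day 7 without its library 1 stood at 1.75%, below day 3 at 1.87%. Day 1 of that arm without its library 1 stood at 0.246%. In the raised flow arm the libraries of day 7 lay above those of days 1 and 3.

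Transplant samples overlapped with both other arms, while every sham share of kept cells lay below every raised flow share, by as little as 1.02% against 1.06%, a pair that was not tested. This gap was lost when cells were thinned to 1000 UMIs, with shares of 0.87, 0.14 and 0.157% in sham, 0.209, 0.905 and 1.72% in the transplant arm and 0.551, 0.787 and 1.60% in the raised flow arm, and without library 1 of raised flow day 1, whose share was then 0.884%. Shares averaged 0.559% ± 0.404 (SD, n = 3) in sham, 1.75% ± 1.11 (SD, n = 3) in the transplant arm and 1.66% ± 0.859 (SD, n = 3) in the raised flow arm. By a two-sided exact permutation test, which cannot go below 0.1 with 3 samples against 3, p was 0.2 for transplant against sham and 0.9 for raised flow against transplant. Adjusted over the 4 share comparisons these values stood at 0.6 and 0.9. As shares of cells positive for Csf1r and Tyrobp, the values were 7.20, 2.82 and 2.59% in sham, 4.87, 5.90 and 13.2% in the transplant arm and 6.93, 6.48 and 13.5% in the raised flow arm, with exact permutation p = 0.3 and 0.5. Digestion, recovery and the number of all other cells set such shares, and their part was not tested.

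The balance between the monocyte gates differed by day in sample totals and varied widely between libraries. Fcnb-positive monocytes per patrolling monocyte numbered 1.60, 1.20 and 1.97 in sham, 5.35, 5.17 and 1.67 in the transplant arm and 5.40, 7.50 and 1.54 in the raised flow arm. The ratio was above 5 in all 4 samples of days 1 and 3 and below 2 in both samples of day 7 and in all 3 sham samples. With 2 samples a day it was not tested. Single libraries ran from 1.30 to 6.11 and 1.27 to 8.81 on day 1 of the transplant and raised flow arms, 2 to 14.2 and 5.31 to 10.0 on day 3 and 0.653 to 7.31 and 0.635 to 1.99 on day 7. The days overlapped in both arms, except days 3 and 7 of the raised flow arm. On day 1 the ratio was 2.47 in the transplant arm without its library 1, and 2.97 or 8.45 in the raised flow arm without its library 1 or 3. On day 7 of the transplant arm it was 3.30 without library 1 and 0.882 without library 2. The Fcnb-positive gate needs 1 Fcnb UMI, so depth can move the ratio, which was not repeated on thinned cells. Median depths of Fcnb-positive monocytes were 5414, 4238.5 and 3425 UMIs in sham. They were 9626, 7232 and 4358 in the transplant arm and 9241, 5318.5 and 4858 in the raised flow arm. The part of depth was not tested.

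**Figure D3:**
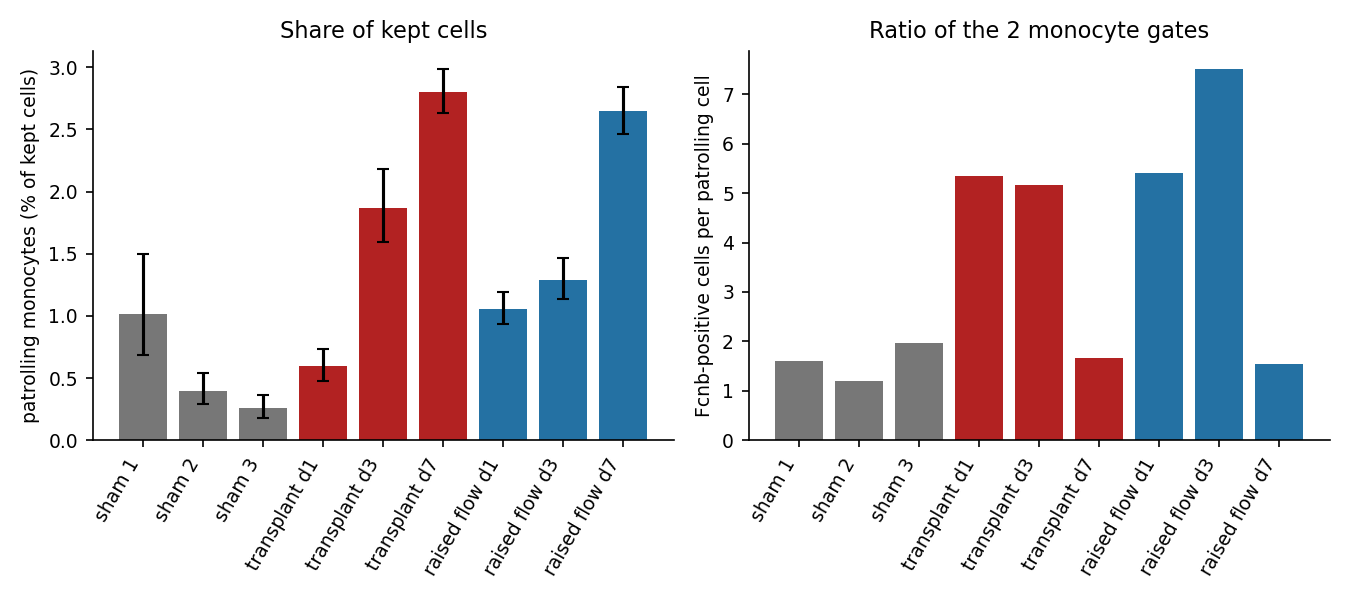
Left, patrolling monocytes as a percentage of kept cells in each sample, with 95% Wilson intervals for counting error; right, Fcnb-positive monocytes per patrolling monocyte. Bars are grey for sham, red for the transplant arm and blue for raised flow, and in these sample totals the share is highest and the ratio below 2 on day 7 of both transplanted arms.

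Patrolling monocytes were set against Fcnb-positive monocytes of the same 9 samples to describe how the monocyte gates differ. Both gates were cut from transcripts of the same cells, so this is a comparison of gates, with the genes of the rule left out. Of the gene groups, 11 of 14 patrolling monocyte markers and 12 of 23 interferon-stimulated genes were higher in the patrolling cells, and all 9 inflammatory monocyte markers tested and 12 of 24 cytokine and chemokine genes were lower. Of 5502 genes tested, 1583 (28.8%) passed an adjusted p of 0.05 by edgeR's quasi-likelihood test with the sample as a block, 783 higher (14.2%) and 800 lower (14.5%). With library size in place of TMM scaling the split was 1070 higher and 510 lower. Median depth was 2881.5 UMIs in patrolling and 5961 in Fcnb-positive cells, and 862 genes passed with both thinned to 1000 UMIs.

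Of 14 patrolling monocyte markers tested, 11 were higher, 1 (Cebpb) was lower and 2 did not pass, with a median log2 fold change of 1.75 against -0.026 over all genes. Eno3 ranged over 35.3 to 263 CPM with a median of 73.1 in patrolling monocytes and over 0 to 24.4 CPM with a median of 3.27 in Fcnb-positive monocytes. These ranges did not overlap. Eno3 was higher in every sample, and 10.4% of all genes tested kept 1 direction in every sample. Its log2 fold change was 3.87 ± 0.23 (adjusted p = 1.85e-08). Fcgr3a, higher in 9 of 9 samples, had 3.16 ± 0.40 (adjusted p = 3.33e-05), and Ceacam1, an adhesion molecule, 3.13 ± 0.26 (adjusted p = 5.51e-07). Pou2f2, Tcf7l2 and Nr4a1, transcription factors of non-classical monocytes, had 1.95, 0.98 and 0.83.

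Other genes named by size were Pmp22, P2ry10, Cd4, Defb14, St3gal5 and Nrp1, all higher in 9 of 9 samples as the rule for such genes required, with log2 fold changes of 2.47 to 3.67. Cd4, a co-receptor that rat monocytes carry, ranged over 16.3 to 52.6 CPM with a median of 23.1 in patrolling and 0.582 to 9.57 CPM with a median of 2.83 in Fcnb-positive monocytes, and Nrp1 encodes the co-receptor neuropilin. Of 18 integrin and adhesion genes, 7 were higher and 4 lower. Itga4, Itgb1, Itgb2 and Itgal, which encode subunits of the integrins VLA-4 and LFA-1, had 1.76, 1.23, 1.30 and 1.55.

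Of 23 interferon-stimulated genes, 12 were higher and none lower, with a median of 0.54. Gbp5, Ifit3, Bst2 and Irf7 had log2 fold changes of 1.35, 1.33, 0.99 and 0.90. In class I antigen processing 6 of 11 genes were higher, among them the peptide transporter gene Tap1 with 0.77, and 1, Calr, was lower. Of 11 class II genes, Cd86 was higher and Ifi30 lower.

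All 9 inflammatory monocyte markers tested were lower, with a median of -1.35. Vcan, the gene of the matrix proteoglycan versican, ranged over 0 to 610.5 CPM with a median of 139.6 in patrolling and 153 to 1619.6 CPM with a median of 636 in Fcnb-positive monocytes, with a log2 fold change of -2.10 ± 0.23 (adjusted p = 9.19e-06). Hp, the gene of haptoglobin, which binds free hemoglobin, had -2.87 ± 0.19 (adjusted p = 5.04e-08), and S100a8, a subunit of the alarmin calprotectin, -2.07 ± 0.32 (adjusted p = 0.000174). All 3 were lower in 9 of 9 samples.

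Of 24 cytokine and chemokine genes, 12 were lower and 3 higher, with a median of -0.71. Ccl2, a chemokine that draws monocytes, ranged over 92.1 to 4034 CPM with a median of 587 in patrolling and 1078 to 13958 CPM with a median of 2561 in Fcnb-positive monocytes, with -1.96 ± 0.28 (adjusted p = 7.89e-05). Osm, Cxcl1 and Il1b had -1.67, -1.40 and -0.83, and those higher were Ccl5, Ccl6 and Casp1. Of these, Ccl5 was higher and Ccl6 and Casp1 were lower in Spn-only than in Mal-only cells. Of 18 hypoxia and glycolysis genes 8 were lower, including Vegfa with -1.02, and 1, Ndrg1, was higher. Of 22 nuclear genes of the respiratory chain 8 were lower and none higher.

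Against C1q-high macrophages of the same samples, 14 of 16 cell cycle genes and 12 of 23 lipid-associated and repair genes were lower in patrolling monocytes, and 15 of 19 adhesion genes and 10 of 20 hypoxia and glycolysis genes were higher. Of 7692 genes tested, 3328 (43.3%) passed, 1546 higher (20.1%) and 1782 lower (23.2%), and the same limits on gates of the same cells apply. Fpr3, a formyl peptide receptor gene, ranged over 5.75 to 172 CPM with a median of 45.4 in patrolling monocytes and over 0 to 1.63 CPM with a median of 0.328 in macrophages, with a log2 fold change of 7.00 ± 0.25 (adjusted p = 7.44e-12). Cxcl13, a B cell chemokine, ranged over 0 to 3.13 CPM with a median of 0 in patrolling monocytes and over 14.4 to 671 CPM with a median of 179 in macrophages, with -7.93 ± 0.26 (adjusted p = 3.71e-12). Neither pair of ranges overlapped. Both genes kept 1 direction in every sample, as 16.9% of all genes tested did.

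Of 14 patrolling monocyte markers, 9 were higher and 4 (Cx3cr1, Stap1, Itgax and Fcgr3a) were lower. Adgre4, S1pr5 and Eno3 had log2 fold changes of 4.85, 4.79 and 4.69, each higher in 9 of 9 samples. Of 19 adhesion genes, 15 were higher and 2 lower, with a median of 1.00 against -0.057 over all genes. Itgb7 and Itga4, whose products pair as an integrin of gut homing, had 3.76 and 3.38. Cd55 and Cd59, which shield cells from complement, had 4.38 and 2.97.

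All 7 tissue macrophage markers tested were lower. Cd163, the hemoglobin scavenger receptor, ranged over 0 to 21.0 CPM with a median of 1.87 in patrolling monocytes and 73.9 to 651 CPM with a median of 124 in macrophages, with -5.96 ± 0.34 (adjusted p = 1.4e-09). Of 23 lipid-associated and repair genes, 12 were lower and 2, Cd9 and Vim, higher. Apoe, which carries lipid out of cells, had -4.74 ± 0.55 (adjusted p = 4.41e-06), and Trem2, a lipid receptor, -3.55. Of 12 class II genes 8 were lower and 1, Cd80, higher.

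Of 16 cell cycle genes, 14 were lower and none higher, with a median of -1.49; the kinase gene Cdk1 had -1.89 and the proliferation marker Mki67 -1.50. Of 20 hypoxia and glycolysis genes, 10 were higher and none lower, among them Ldha with 0.90 and Hif1a with 0.55. Of 28 interferon-stimulated genes, 11 were higher and 3, Mx2, Cxcl10 and Ifi27, lower. Gzma, Prf1 and Nkg7, which are genes of NK cells, were also higher in patrolling monocytes, with 1.83, 2.93 and 2.89. Nkg7 was higher in Spn-only cells, 16.7% of the gate, than in Mal-only cells, a comparison in which Gzma and Prf1 were not tested. The part of NK cells in these values was not tested.

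**Figure D4:**
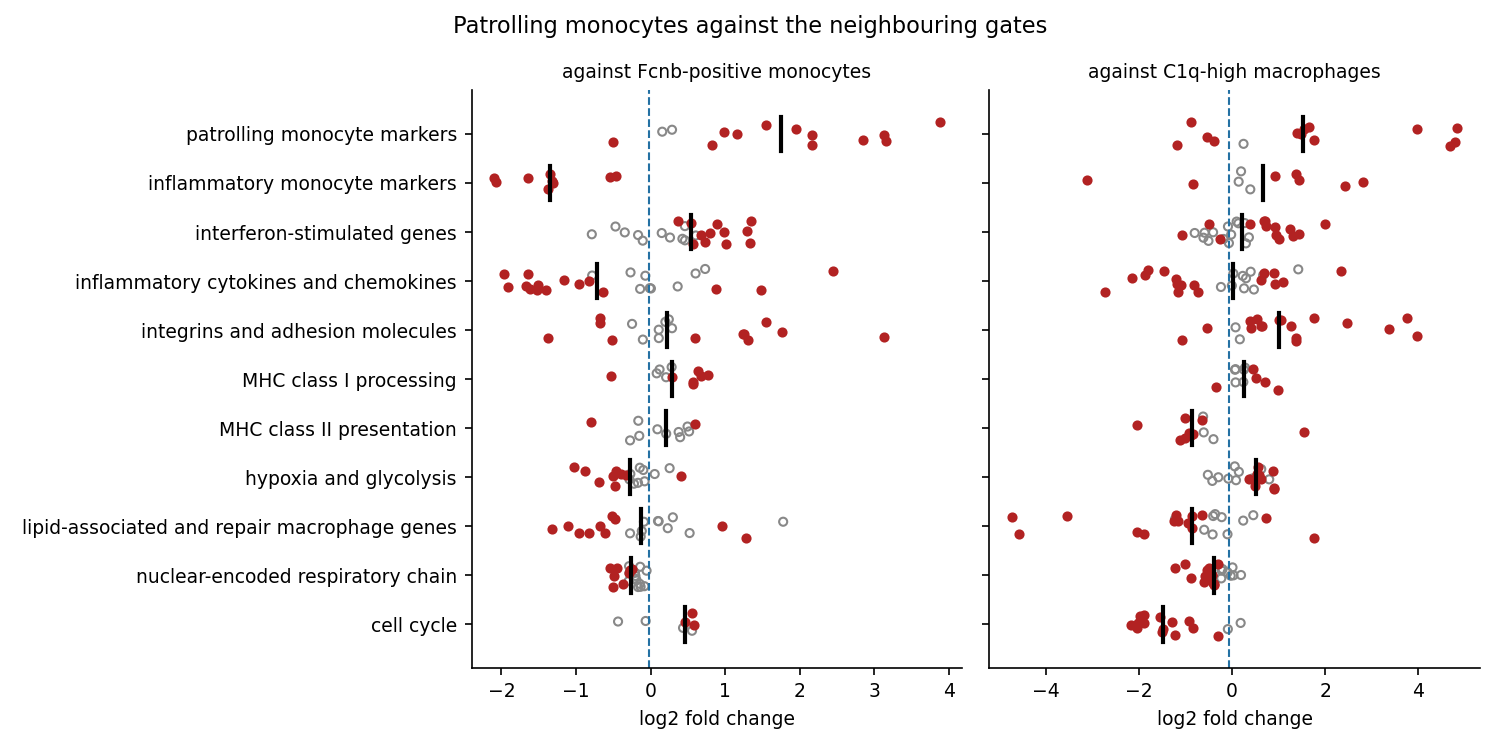
Log2 fold change of each tested gene of 11 lists, patrolling monocytes against Fcnb-positive monocytes (left) and against C1q-high macrophages (right), 9 samples with the sample as a block. Filled red points passed an adjusted p of 0.05, open points did not, black bars are list medians and the dashed line is the median of all genes; all 9 inflammatory monocyte markers lie to the left in the first panel and 14 of 16 cell cycle genes are filled on the left in the second.

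The transplant arm was compared with sham to ask what patrolling monocytes carried post-LT. S100a9, Mcemp1, Upp1, Ass1 and Gyg1 were higher than in sham, and Smc2 was lower. Of 4496 genes tested by edgeR's quasi-likelihood test over all 9 samples, 6 (0.133%) passed an adjusted p of 0.05, 5 higher (0.111%) and 1 lower (0.0222%), and 640 had an unadjusted p under 0.05. S100a9, the partner of S100a8, stood at 0, 0 and 10.3 CPM in sham, 5784, 2711 and 479 in the transplant arm and 1239, 405 and 1183 in the raised flow arm. Genes named by size in this comparison had to be free of overlap between its arms, as 19.4% of all genes tested were. All transplanted samples were above all sham samples, where 1 UMI was counted in all. The pooled ratio of transplant to sham was 421 with a counting interval of 75.6 to 16637. The adjusted p was 0.0197. Here and below, counting intervals cover the counting error of pooled UMIs only and not the spread between samples.

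Mcemp1, a membrane protein gene of mast cells and monocytes, stood at 0, 6.32 and 0 CPM in sham, 236, 297 and 149 in the transplant arm and 123, 164 and 219 in the raised flow arm. Sham again held 1 UMI, the pooled ratio was 56.6 with a counting interval of 10.1 to 2239, and the adjusted p was 0.0112. Upp1, which splits uridine, stood at 13.96, 31.6 and 92.3 CPM in sham and 689.6, 491 and 341 in the transplant arm, with a log2 fold change of 3.44 ± 0.54 (adjusted p = 0.0427).

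Ass1, an enzyme of arginine synthesis, stood at 0, 19.0 and 30.8 CPM in sham and 122, 207 and 219 in the transplant arm (log2 fold change 3.34 ± 0.52, adjusted p = 0.0427). Gyg1, the glycogen primer, stood at 41.9, 31.6 and 41.0 and 133, 171 and 130.1 CPM (1.96 ± 0.32, adjusted p = 0.0474). Smc2, a condensin subunit gene, was lower, at 69.8, 94.9 and 92.3 CPM in sham and 23.9, 18.8 and 22.7 in the transplant arm (-1.998 ± 0.32, adjusted p = 0.0474).

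These calls rested on few sham cells. Upp1 had 1, 5 and 9 UMIs in sham 1, 2 and 3, and Ass1 had 0, 3 and 3. Gyg1 had 3, 5 and 4 UMIs there, and Smc2 had 5, 15 and 9. The mix of Spn-only and Mal-only cells also differed between samples, and its part in the calls was not tested. Without sham 2 or without sham 3 no gene passed by edgeR, with 543 and 548 at an unadjusted p under 0.05, without transplant day 3 only Mcemp1 did, and without sham 1, the sample with the fewest cells, 174 did. When the profile of empty barcodes was subtracted, only Mcemp1 passed, while Upp1, Gyg1 and Smc2 had log2 fold changes of 3.41, 1.93 and -2.03. S100a9 reached 11107 CPM in the empty barcodes of 1 sample, and free RNA could account for 21.5% of its UMIs in patrolling monocytes, against 2.68% for Mcemp1 and 2.96% for Upp1. The 13 neutrophil markers, which include S100a8, S100a9 and Slpi, summed to 1840.2 to 3350.1 CPM in sham, 8226 to 35253 in the transplant arm and 5212 to 15274 in the raised flow arm, with Ltf, Cd177 and Ngp at 0. The part of neutrophil RNA was not tested. In Fcnb-positive monocytes S100a9 had a median of 614 unscaled CPM over the samples and in C1q-high macrophages 528. Both lay below the 3581 of the empty barcodes, and how much of either was free RNA was not tested. Thinned shares of cells with an S100a8 UMI were 10, 4.26 and 14.8% in Fcnb-positive monocytes of sham. In the transplant arm they were 80.1, 45.6 and 22.0%. C1q-high macrophages had 0, 0.127 and 0.432% in sham and 20.8, 8.47 and 4.80% in the transplant arm. Patrolling monocytes had 0, 2.56 and 3.45% and 26.25, 11.3 and 3.48%. Higher S100a8 shares in the transplant arm were thus not particular to patrolling monocytes.

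Most of the gene groups held no called gene in this comparison. Of 23 interferon-stimulated genes, none passed and 21 had a positive log2 fold change, with a median of 1.37 against 0.028 over all genes. In class I processing none of 11 passed, with a median of 1.11. None of 13 patrolling monocyte markers passed, with a median of 0.24. The 6 cell cycle genes had a median of -1.61, with none called. In the same fit the 5 tissue macrophage markers had a median of -2.21 with 0 positive, the 2 dendritic cell markers -1.19 with 0 positive and the 4 NK cell markers 1.91 with 4 positive, none of them called, and their part in the values of Smc2 and the cell cycle genes was not tested. S100a8, which did not pass, had 3 UMIs in sham, 1 in each sample, and 4111, 1798 and 272 CPM in the transplant arm. Slpi, a leukocyte protease inhibitor, stood at 307, 1005 and 615 CPM in sham, 23241, 10847 and 5026 in the transplant arm and 11426, 2516 and 2043 in the raised flow arm, and did not pass.

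Raised flow was compared with transplantation alone, and no gene passed among the 4496 tested (0%) by edgeR's quasi-likelihood test, with 45 at an unadjusted p under 0.05. DESeq2 called 1, Cxcl11. With the day as a replicate block in the 6 transplanted samples, 1 gene passed, Cxcl3, and 245 had an unadjusted p under 0.05. Cxcl3, a chemokine that draws neutrophils, stood at 1864, 172 and 184 CPM in the transplant arm and 177, 9.82 and 15.5 in the raised flow arm, lower in the latter on each day, with a blocked log2 fold change of -3.58 (adjusted p = 0.00104). Cxcl11, an interferon-induced chemokine that draws T cells, had the smallest p without the block. It stood at 39.8, 23.2 and 22.4 CPM in the transplant arm and 101, 199 and 177 in the raised flow arm, and had no UMI in sham. The raised flow samples were all above the transplant samples, a lack of overlap that 7.01% of all genes tested showed, with a log2 fold change of 2.55 ± 0.38 (adjusted p = 0.25, not called).

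Mx1, an interferon-induced antiviral gene, ran the other way, at 178, 109 and 212 CPM in the transplant arm and 29.5, 34.4 and 89.6 in the raised flow arm, also without overlap and not called (-1.64 ± 0.45, adjusted p = 1). Cxcl9 stood at 74.3, 5.80 and 99.96 and 73.0, 277 and 284 CPM in these arms, and the samples overlapped. The 23 interferon-stimulated genes had a median of -0.31 with 8 positive. The 13 patrolling monocyte markers had a median of 0.02 against 0.015 over all genes. The 22 immediate early and stress genes had a median of 0.14, with 19 positive.

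Day 7 was compared with day 1 over both transplanted arms, with the arm as a term and 2 samples a day. The chemokine genes Ccl2, Ccl7 and Cxcl3 and the protease inhibitor gene Timp1 were lower on day 7. None of these passed with the empty barcode profile subtracted, where edgeR's quasi-likelihood test gave adjusted p of 0.158 for Ccl2, 0.223 for Ccl7 and 0.257 for Timp1. Of 6354 genes tested by edgeR's quasi-likelihood test, 17 (0.268%) passed an adjusted p of 0.05, 7 higher (0.11%) and 10 lower (0.157%). Ccl2 stood at 1042 and 789 CPM on day 1 and 303 and 293 on day 7 in the transplant and raised flow arms (log2 fold change -1.65 ± 0.23, adjusted p = 0.0431). Day 3 lay between, at 626 and 552 CPM, while sham spanned 97.7, 4332 and 2666 CPM and overlapped with the transplanted samples.

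Ccl7, another monocyte chemokine, fell from 146 and 123 CPM on day 1 to 19.99 and 27.7 on day 7 (-2.53 ± 0.30, adjusted p = 0.0253). Cxcl3 passed as well but overlapped between days, with 1864 and 177 CPM on day 1 and 184 and 15.5 on day 7. These were the 3 called of 25 cytokine and chemokine genes, whose median was 0.21 against 0.005 over all genes.

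Timp1, an inhibitor of metalloproteinases, stood at 427 and 457 CPM on day 1 and 89.1 and 80.9 on day 7 (-2.45 ± 0.29, adjusted p = 0.0253). Mmp9, a gelatinase gene that neutrophils also express, had -3.48, Hp -2.69 and Ero1a, a hypoxia-induced oxidase gene, -2.09. Gprc5d and Fggy had -3.69 and -2.75. Genes named by size had to be free of overlap between the days, which with 2 samples a day held for 55.2% of all genes tested. Reg3b, a secreted lectin of epithelium, was also lower, but its UMIs were no more than the free RNA profile gives, at 112% of those counted.

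Layn, a hyaluronan receptor gene, was higher on day 7, at 26.5 and 35.7 CPM on day 1 and 119 and 155 on day 7 (2.14 ± 0.30, adjusted p = 0.0431). Tm4sf1, N4bp2l1 and Vopp1 had 3.40, 2.37 and 2.01, and free RNA could give 14.6% of the UMIs of Tm4sf1. Ighm, an immunoglobulin gene of B cells, had 5.09, and free RNA could give 25.2% of its UMIs. RT1-N2, a class I gene with close copies, had 2 UMIs on day 1 and 294 on day 7, a pooled ratio of 44.2 with a counting interval of 12.1 to 366.

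The gene groups held few called genes by day. Of 15 patrolling monocyte markers 14 had a positive log2 fold change on day 7, with a median of 0.82, and of 26 interferon-stimulated genes 24 did, with a median of 0.85, none of them called. Gngt2 stood at 1268 and 1201 CPM on day 1 and 2192 and 1921 on day 7. The 22 lipid-associated and repair genes had a median of -1.31 with 2 positive and none called, beside 6 tissue macrophage markers with a median of -2.23, 1 positive and none called, whose part was not tested. The 5 NK cell markers had a median of 1.19 with 5 positive and none called, and the 10 inflammatory monocyte markers one of -1.08 with none called. The 9 neutrophil markers tested had -1.41, with Mmp9 called. With the empty barcode profile subtracted no gene passed by edgeR, with 981 at an unadjusted p under 0.05, while Timp1, Ccl7 and Layn had log2 fold changes of -2.46, -2.70 and 2.16. With Gngt2 required 4 did, Tm4sf1, N4bp2l1, Fggy and Ccl7, and without transplant day 3 the count was 449.

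**Figure D5:**
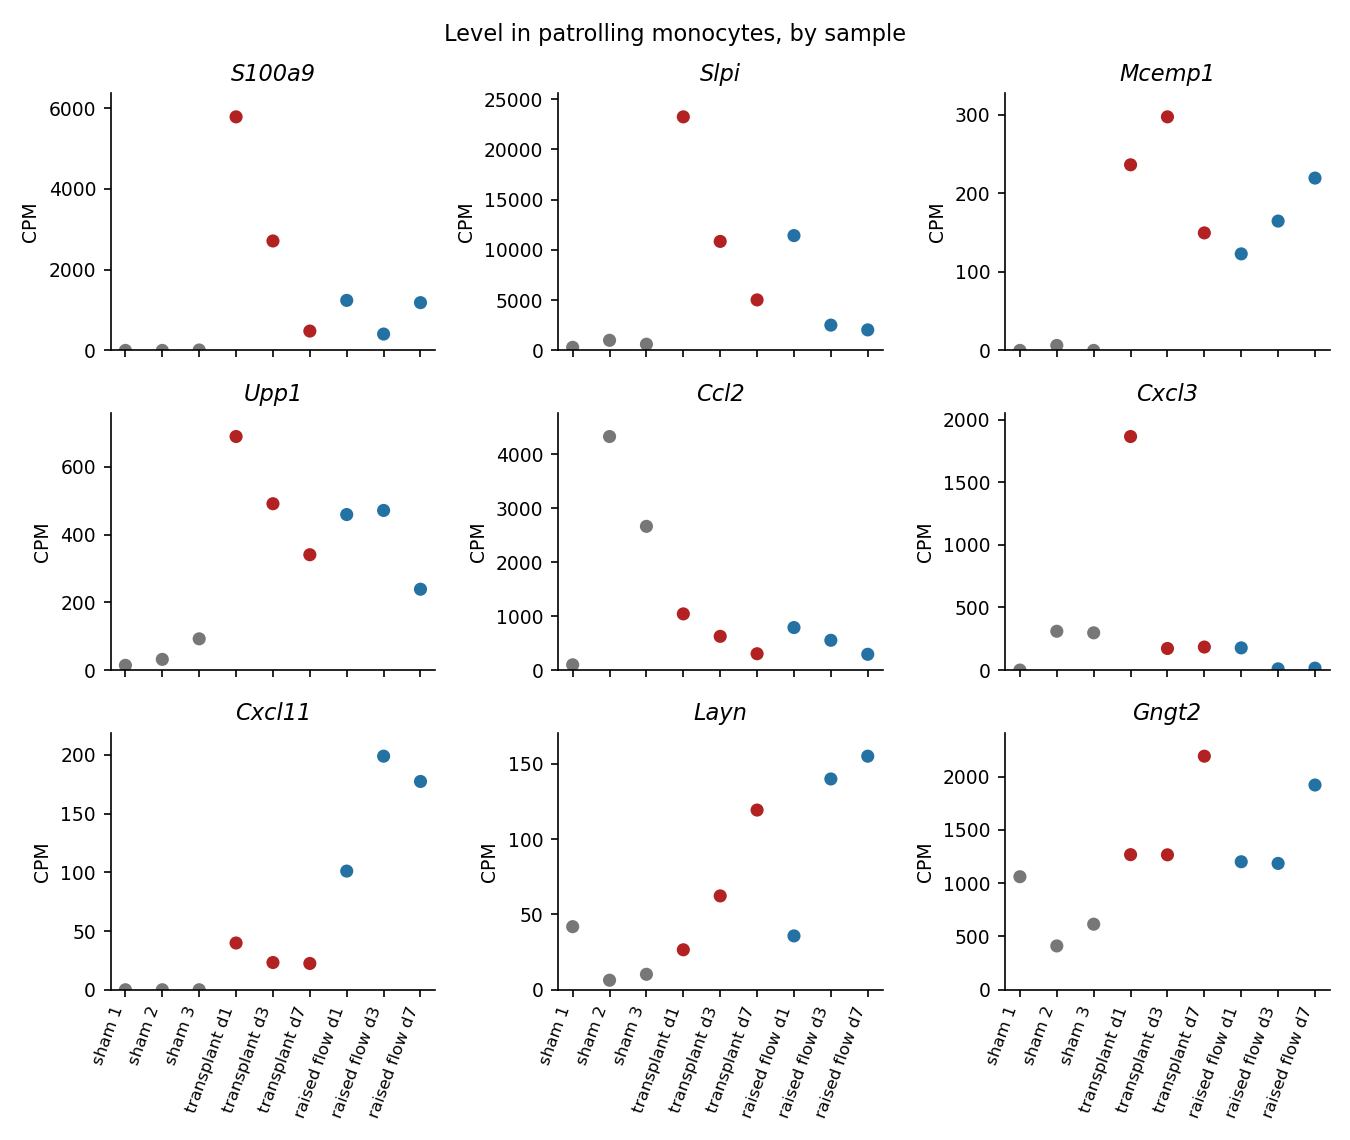
CPM of 9 genes in the patrolling monocytes of each sample, on linear axes that start at 0; grey points are sham, red the transplant arm and blue raised flow, each with days 1, 3 and 7 from left to right. S100a9, Mcemp1 and Upp1 are lowest in the 3 sham samples, Ccl2 is lower on day 7 than on day 1 in both transplanted arms, and Cxcl11 is higher in the 3 raised flow samples than in the 3 transplant samples.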

How the data were processed

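Droplet 3' single-cell RNA was measured in dissociated rat bile duct. What the authors deposited are raw UMI counts of genes by barcode, empty barcodes included, in 20 libraries of 9 samples; 1 further library of raised flow day 3 was not analysed here. The submitters' processing notes name Cell Ranger 5.0.1 and Seurat 3.2.0, the matrix headers name Cell Ranger 4, and the genome build is not given in the sources used here. Counts of features with the same symbol were added (23999 features, 23836 symbols).

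A barcode was kept as a cell with more than 400 and fewer than 6000 genes, a mitochondrial share below 25% and a hemoglobin share below 3%. No doublet caller was run; an alternative left out members above the 92.5th UMI percentile of their library. Fcnb-positive monocytes had at least 1 Fcnb UMI and C1q-high macrophages more than 2 C1q UMIs and no Fcnb, with no limit on Spn or Mal. Both kept the limits on Csf1r, Tyrobp, Cd3e, Cd79b, Epcam and Lum, and Fcnb-positive monocytes also held at most 2 C1q UMIs. Total UMIs in kept cells ran from 1705087 to 84919892 per library. The profile of free RNA was taken from barcodes with at most 100 UMIs. Its share in a gate was estimated from UMIs of 19 epithelial, fibroblast and smooth muscle markers. The members and gene lists were chosen with earlier results of these data known.

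UMIs were summed per sample and tested with edgeR 4.0.16 in R 4.3.3 (quasi-likelihood F test, TMM scaling, filterByExpr, Benjamini-Hochberg adjustment over all genes tested, threshold 0.05). Member levels given by sample are CPM after TMM scaling over the members of all 9 samples. Ranges in comparisons of 2 gates are CPM after TMM scaling over both gates, so member levels differ slightly between the 2 scales. The S100a9 levels given for other gates and for empty barcodes are CPM without that scaling. Shares were compared by two-sided exact permutation tests in scipy 1.17.1. Alternatives were DESeq2 1.42.0, other scalings, filters and gates, thinning to 1000 UMIs, empty-profile subtraction, libraries as samples and samples left out. Named genes were, per fit, up to 10 per direction by fold change that passed, had at least 20 UMIs and did not overlap between groups (with a block: kept 1 direction in every sample), or else the 5 smallest p per side; called list genes; and detected patrolling markers. Unnamed, ribosomal, mitochondrial and rule genes were left out. Counts were simulated with 200 changed genes and a dispersion of 0.15 for every gene. Their expected levels differed between samples only by depth and by these changes. There the transplant against sham fit of 4496 genes recovered 5% of 2-fold and 48% of 4-fold changes. The day 7 against day 1 fit of 6354 genes recovered 4% and 35%, and the raised flow fit of 4496 genes 9% and 84%. Spread in the real samples may be larger, so these shares do not measure what the fits could find in them.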

Additional observations from a re-analysis of the deposited data

Results flagged for a closer look

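Among the 60 sets of paired log2 ratios (CPM plus 1) of named genes, 13 held 1 sample that stood apart from the others by Dixon's ratio; chance marks about 1 in 20, and the sets share samples. Against Fcnb-positive monocytes, sham 1 stood apart in 5 of them: Pmp22 7.31 against 1.81 to 4.28, Vcan -9.66 against -4.11 to -1.31, Asl -5.89 against -2.18 to -1.36, Ccl2 -5.62 against -2.50 to -0.75 and Fosl1 -5.89 against -2.51 to -1.21 in the other samples. Sham 3 stood apart for Nrp1 0.82 against 1.97 to 3.09. Against C1q-high macrophages, sham 2 stood apart for S1pr5 2.36 against 3.69 to 4.48. Sham 1 held 25 patrolling monocytes and sham 2 held 40. Where patrolling monocytes held no UMI of a gene, the added 1 CPM set the ratio, as for Vcan in sham 1. Asl and Fosl1 had equal values there, and the part of low counts in them was not tested.

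Between Spn-only and Mal-only cells, raised flow day 1 stood apart for Adgre4 -3.39 against -1.75 to -0.90, for Gbp2 -3.75 against -1.58 to -0.64, for Tnfaip2 -4.95 against -1.84 to -0.61 and for Gbp5 -3.50 against -1.54 to -0.77. Raised flow day 3 stood apart for Pkib 7.46 against 2.38 to 3.91 and transplant day 1 for Klrb1b 6.48 against 2.46 to 3.22.

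For 4 genes every sham sample lay on the other side from every transplanted sample of both arms, among 491 genes and shares looked at, and the difference itself was not tested. Among so many, some lie so by chance. How many was not worked out, so the values below are only a description. Il1b, a cytokine of the inflammasome pathway, averaged -0.68 on the log2 scale against C1q-high macrophages in sham, 1.40 in the transplant arm and 1.15 in the raised flow arm, which put sham apart by -2.08 and -1.83. Il1rn, its natural antagonist, averaged -0.71, 1.03 and 0.96, with sham apart by -1.73 and -1.66. The phosphatase gene Dusp1 averaged -0.24, 0.73 and 0.95, with sham apart by -0.97 and -1.18. Against Fcnb-positive monocytes, the chaperone gene Calr averaged 0.02 in sham, -0.82 in the transplant arm and -0.61 in the raised flow arm, with sham apart by 0.84 and 0.63.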

How the results depend on the processing

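Sham held 96 patrolling monocytes, which limits what a comparison with it can show. The higher share in the transplant arm than in sham kept its direction under every alternative run, with differences of 0.671 to 1.77 percentage points of kept cells and 1.18 to 5.37 of Csf1r and Tyrobp positive cells when 1 sample was left out, and of 0.554 points of kept cells with cells thinned, against 1.19 with all UMIs. The difference between raised flow and transplant had no stable direction. In kept cells it was -0.0896 points, 0.161 with cells over the hemoglobin limit kept, 0.0352 with cells thinned, 0.434 without transplant day 7, and 0.214 and 0.0978 without raised flow days 1 and 3, a range of -0.669 to 0.434. In Csf1r and Tyrobp positive cells it was 0.96 points, and -0.606, -0.0932 and -1.30 without transplant day 1, transplant day 3 or raised flow day 7, a range of -1.30 to 3.58. With a replicate block by day the differences were -0.0896 and 0.96 points.

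Genes called for transplant against sham numbered 6, and 94 with DESeq2, 365 with no low-count filter, 2 with Spn and Mal at least 2, 12 without members of very high UMIs, 1 with the empty profile subtracted, 17 with libraries as samples, 12 with these 2 arms alone, and 0 to 174 when 1 sample was left out (0 without sham 2 or 3, 174 without sham 1, 1 without transplant day 3, 22 and 10 without raised flow days 1 and 7). No paired analysis was possible for this comparison because sham samples carry no day. For raised flow against transplant the count was 0, and 1 with DESeq2, 26 with no filter, 1 with a replicate block by day, and 0 to 2 with 1 sample left out (2 without raised flow day 1). Deviations of the same-day samples of these 2 arms correlated at 0.41, -0.023 and 0.35 on days 1, 3 and 7, so positively on days 1 and 7 only. The main fit had no block, and the fit with the day as a block stood as an alternative.

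For day 7 against day 1 the count was 17, and 70 with DESeq2, 458 with no filter, 3 with Spn and Mal at least 2, 4 with Gngt2 required, 35 without members of very high UMIs, 121 without members holding UMIs of a wider marker panel, 0 with the empty profile subtracted, 132 with libraries as samples and 25 to 449 with 1 sample left out (157, 449 and 116 without transplant days 1, 3 and 7, 391 and 85 without raised flow days 3 and 7). Chosen after seeing the data, Mal at least 1 gave 27 and leaving out the 2 thin libraries of transplant day 3 gave 11. Against Fcnb-positive monocytes, 1583 became 369 with no replicate block, 862 with thinned cells and 1007 to 1776 with 1 sample left out (1048 and 1007 without transplant or raised flow day 7). Against C1q-high macrophages, 3328 became 2189 with no replicate block, 2010 with thinned cells and 2505 to 3503 with 1 sample left out. Between Spn-only and Mal-only cells, 641 became 112 with no replicate block, 104 with thinned cells and 286 to 633 with 1 sample left out (385, 406 and 286 without transplant day 7 or raised flow days 1 or 7). The cause of these moves was not tested. Leaving out single libraries of a sample was also chosen after seeing the data. No named gene changed direction under any alternative run. Genes named by size were chosen for no overlap or for 1 direction in every sample. Runs with a sample left out were therefore no test of their direction. Over the named genes, 117 settings ended a call and 34 made one.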

Other observations

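Other gene groups held called genes in both directions between the gates, where 28.8% of all genes passed against Fcnb-positive monocytes and 43.3% against C1q-high macrophages. Of the transcription factors of monocyte fate, 6 higher and 4 lower of 21 tested passed against Fcnb-positive monocytes, and 8 higher and 5 lower of 20 against C1q-high macrophages. Klf4 was higher in both, with log2 fold changes of 0.43 and 0.73. Of the Fc receptor and phagocytosis genes, 7 higher and 3 lower of 16 passed against Fcnb-positive monocytes and 4 higher and 6 lower of 17 against macrophages, where the dead cell receptors Axl and Mertk had -3.52 and -1.87. Of the receptor genes, 4 higher and 3 lower of 19 and 9 higher and 3 lower of 20 passed, among them Ccr1 with -1.99 against Fcnb-positive monocytes and Cxcr4 with 1.07 against macrophages.

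Of the iron and heme genes, 5 higher and 2 lower of 12 passed against Fcnb-positive monocytes and 5 higher and 6 lower of 14 against macrophages. Blvra, a biliverdin reductase gene, had 1.22 and 2.05, and Hmox1, the heme oxygenase gene, had -1.17 against macrophages. Of the apoptosis and survival genes, 3 higher and 6 lower of 14 and 5 higher and 2 lower of 15 passed, with the death receptor gene Fas at 0.80 and 1.86. Of the immediate early genes, 4 higher and 3 lower of 22 and 5 higher and 8 lower of 23 passed, with medians of -0.003 and -0.224 against -0.026 and -0.057 over all genes; the tissues were digested at warm temperature, and the part of digestion was not tested. Of the complement genes, 3 higher and 1 lower of 10 and 7 higher and 2 lower of 12 passed.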
